A study of Homo sapiens with 12 samples.

Results

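The genes described here are the translation initiation and elongation factor genes, chosen by symbol as the protein-coding autosomal genes whose GENCODE symbol starts with EIF or EEF. The annotation held 69 such genes among 19111 protein-coding autosomal genes, and 66 of them had a row in at least 1 of the deposited tables, which held 35651 genes in all. EIF4E1B and the readthrough genes EEF1AKMT4-ECE2 and EEF1E1-BLOC1S5 had no row. The symbol also takes in enzymes that modify these factors, such as the eEF1A lysine methyltransferases, and kinases that act on eIF2.

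The study introduced LAST-seq, which amplifies single-stranded RNA directly by T7 transcription, and compared it with CEL-seq2 and SMART-seq. HEK293T, a human embryonic kidney line, was given as single cells (2 LAST-seq and 2 CEL-seq2 libraries of 10 cells, and 6 SMART-seq cells), as single-cell lysate (10 wells in each of LAST-seq and CEL-seq2, and 10 and 16 wells in 2 SMART-seq sets) and as 10 LAST-seq wells of 15-pg total RNA. LAST-seq was also given for eHAP1, a haploid human line, with 148 wild-type (WT) cells and 153 cells with a knockout (KO) of SCC4, the cohesin loader subunit whose gene symbol is MAU2. All eHAP1 cells were live haploid cells sorted in G1, the KO was made with Cas9 and carried by clones grown from single cells, and each genotype was 1 deposited sample of 2 batches. HEK293T cells were not sorted by cell cycle. Spike-in RNA was added to the wells, and the labels name the mix for some samples. For cells they name A60 in LAST-seq library 1, ERCC in LAST-seq library 2, both in CEL-seq2 library 1 and ERCC in CEL-seq2 library 2. For lysate they name A60 in LAST-seq and the first SMART-seq set, and ERCC in the second SMART-seq set. Library and mix therefore cannot be told apart within an assay. LAST-seq and CEL-seq2 values are numbers of unique molecular identifiers (UMIs), each of which stands for a captured molecule whatever its length, whereas SMART-seq values are reads, which grow with transcript length. Levels are given as CPM, a gene's UMIs (in SMART-seq, its reads) divided by those of all genes of the library and scaled to the same total everywhere, and SMART-seq levels are not ordered between genes.

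Initiation factors bring the initiator tRNA and the small ribosomal subunit to the mRNA cap and to the start codon. eIF2 carries the initiator tRNA, eIF3 holds the complex together, eIF4F binds the cap, and eIF1, eIF5 and eIF5B act in start-site choice and subunit joining. In elongation, eEF1A delivers aminoacyl-tRNA, the eEF1B complex reloads it with GTP, and eEF2 moves the ribosome along the mRNA. Several of these mRNAs, like those of ribosomal proteins, begin with a C and a run of pyrimidines, the terminal oligopyrimidine tract, through which mTOR signalling controls their translation.

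The median total per cell was 147370 and 160650 UMIs in the LAST-seq libraries and 169900 and 152540 UMIs in the CEL-seq2 libraries of HEK293T, and WT eHAP1 cells ranged from 18022 to 926415 UMIs. Each of the 6 SMART-seq cells was near-identical to a well of the second SMART-seq lysate set, so those cells give no separate evidence, and 3 pairs of wells within the first lysate set were near-identical to each other. The same 10 well barcodes were used in both LAST-seq libraries of cells, and 145 were shared between WT and KO cells of the same batch. Of the kidney and neural markers checked for HEK293T, PAX2 and LHX1 lay at 0 to 7.95 CPM in the LAST-seq cells, NEFL at 29.5 and 9.94, and NEFM at 0 in both libraries. In WT eHAP1 PAX2 had 15.6 and LHX1 8.34 CPM, and NEFL was at 0. The blood markers PTPRC, GATA1 and SPI1 were at 0 in WT eHAP1, as was CD34.

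The start sites of 6 members on a list of mRNAs known to carry the tract are shown. RefSeq transcription starts on GRCh38.p14 are given with 10 bases before and 20 bases from the start, 5′ to 3′ on the gene's strand, and capitals mark a C at the start followed by at least 4 pyrimidines (C or T).
EEF1A1 (chr6:73521013-73521042, minus strand): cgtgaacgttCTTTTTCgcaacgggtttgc
EEF1B2 (chr2:206159885-206159914, plus strand): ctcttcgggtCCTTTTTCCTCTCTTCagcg
EEF2 (chr19:3985444-3985473, minus strand): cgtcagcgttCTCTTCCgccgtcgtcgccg
EIF3F (chr11:7987327-7987356, plus strand): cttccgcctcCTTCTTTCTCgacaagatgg
EIF4B (chr12:53006446-53006475, plus strand): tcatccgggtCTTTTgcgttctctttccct
EEF1G (chr11:62573872-62573901, minus strand): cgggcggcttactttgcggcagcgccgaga
EEF1G, a subunit of the eEF1B complex, is the one shown whose annotated start held no match. EEF1B2 has another annotated start, not shown, without the match. Read on the gene's strand only, 12 of the 55 members with an entry had the match (21.8%), against 922 of 14616 protein-coding autosomal genes (6.31%) and 45 of 66 ribosomal protein genes (68.2%). The other 7 were EIF2A, EIF2D, EIF2S3B, EIF3D, EIF3K, EIF3M and EIF4A2. A gene counted as matched if any of its entries matched, as for EEF1B2 and EIF2S3B. By entry, 12 of 72 member entries matched (16.7%), against 4.57% of entries of protein-coding autosomal genes. A match describes these letters and is no evidence of regulation, and no match says only that these letters are not at the annotated start.

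The members took up a small share of the RNA. They held 1.31% and 1.27% of all UMIs in the LAST-seq libraries of HEK293T cells, 1.17% and 1.22% in the CEL-seq2 libraries, 1.25% in WT eHAP1 and 1.21% in SCC4 KO eHAP1. The share was lower in the 15-pg RNA wells (1.07%) and in the lysate of LAST-seq (1.05%) and CEL-seq2 (1.10%), and it was 1.59% to 1.68% of reads in the SMART-seq sets. These totals include mitochondrial UMIs, which made up 16.6% and 14.3% in LAST-seq cells and 7.47% and 9.23% in CEL-seq2 cells. They made up 18.7% in 15-pg RNA, 19.2% in LAST-seq lysate and 14.5% in CEL-seq2 lysate. Such differences move the members' share by themselves, and shares without mitochondrial UMIs were not taken. LAST-seq detected 61 and 62 members in HEK293T cells, CEL-seq2 detected all 66 in both libraries, and 64 were detected in WT eHAP1. The median detected member had 79.3 and 76.5 CPM in the LAST-seq libraries, 84.0 and 86.2 in the CEL-seq2 libraries and 68.1 in WT eHAP1. By role, eIF3 subunits summed to 2488 and 2364 CPM in the LAST-seq cells, and eIF4F with its helpers to 2678 and 2459. eEF2 with its regulators reached 2451 and 2518, almost all of it from EEF2 itself.

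EEF2, the translocation factor, was the most abundant member in all UMI libraries of HEK293T. Its level over the 10 cells of LAST-seq library 1 ran from 2276 to 2762 CPM with a median of 2365, and in library 2 from 2200 to 2828 with a median of 2462. In CEL-seq2 the cells ran from 1229 to 2227 in library 1 and from 959 to 1773 in library 2. No CEL-seq2 cell of library 2 reached the lowest LAST-seq cell. EIF4G2, a scaffold related to eIF4G that lacks the cap-binding partner site, followed with 1818 and 1667 CPM in LAST-seq, and EIF5AL1 came after it with 1500 and 1488. EIF1 (561 and 725), which guards start-codon choice, and EEF1B2 (608 and 482), the exchange factor of eEF1A, came next.

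**Figure D1:**
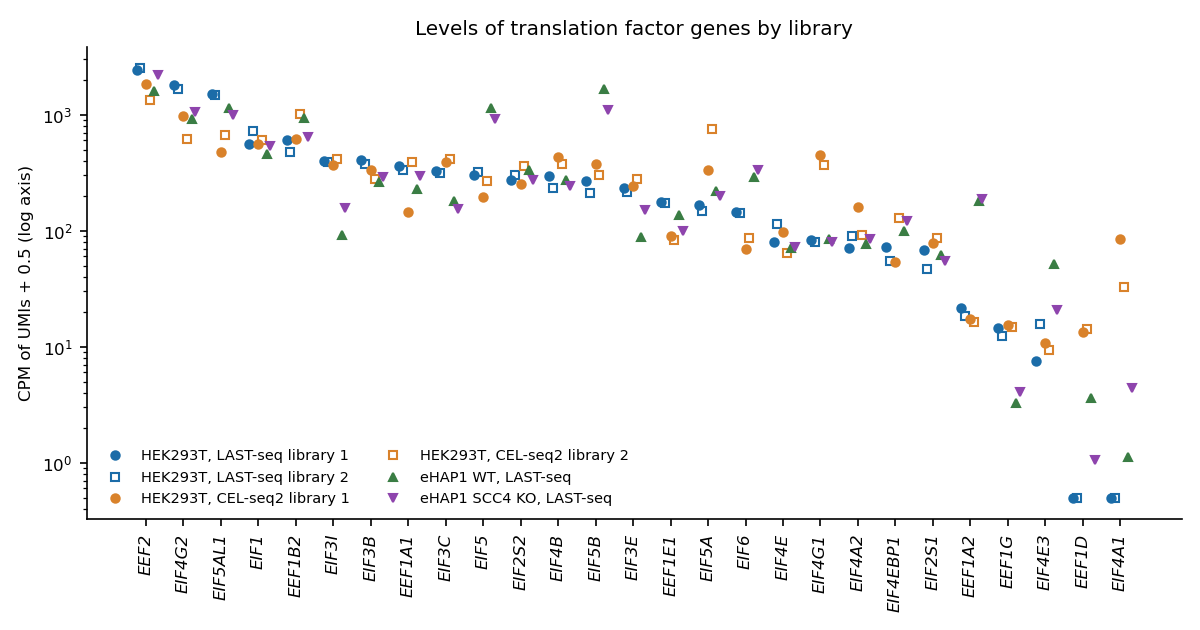
Levels of 27 members in 6 libraries, with genes in falling order of their LAST-seq level in HEK293T and CPM plus 0.5 on a log axis. EEF2, EIF4G2 and EIF5AL1 lead in LAST-seq at 1488 to 2506 CPM, EEF1A1 is 8th, and EEF1D and EIF4A1 are at 0 in both LAST-seq libraries of HEK293T.

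EEF1A1 encodes the main form of eEF1A, a very abundant protein, but its UMI level was not an extreme in these tables. LAST-seq gave 363 and 332 CPM, the 8th highest member in each library and rank 347 and 401 among all genes. In the same libraries RPL11, the most abundant nuclear protein-coding gene, had 6053 and 6288. Over LAST-seq cells EEF1A1 ran from 182 to 493 CPM in library 1 and from 181 to 436 in library 2. The CEL-seq2 libraries were further apart, at 68.5 to 228 in library 1 and 138 to 757 in library 2, with medians of 160 and 351. Its share per cell was 0.0338% ± 0.00969 (SD, n = 20 cells of 2 libraries) in LAST-seq and 0.0279% ± 0.0211 in CEL-seq2. SMART-seq gave 1389 CPM of reads in cells. In WT eHAP1 the level was 229 CPM, rank 569.

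A large part of the reads of this family was assigned to pseudogenes. Of the 49 annotated EEF1A1 pseudogenes, 25 and 23 were detected in the LAST-seq libraries, where they held 47.7% and 45.7% of the sum of EEF1A1 and its pseudogenes. They held 54.0% and 73.3% in the CEL-seq2 libraries, 67.4% of reads in SMART-seq cells and 61.2% in WT eHAP1. Set among single genes, whose own pseudogenes were not added, the sum ranked 165 and 193 in the LAST-seq libraries. Over the whole EEF1A1 transcript, 37.2% of 50-base windows also occurred in other annotated transcripts, with EEF1A1P5 (32.9% of windows) and EEF1A1P6 (28.7%) leading, while none of the windows in the last 500 bases did. How many molecules came from each locus cannot be told apart from these tables.

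**Figure D2:**
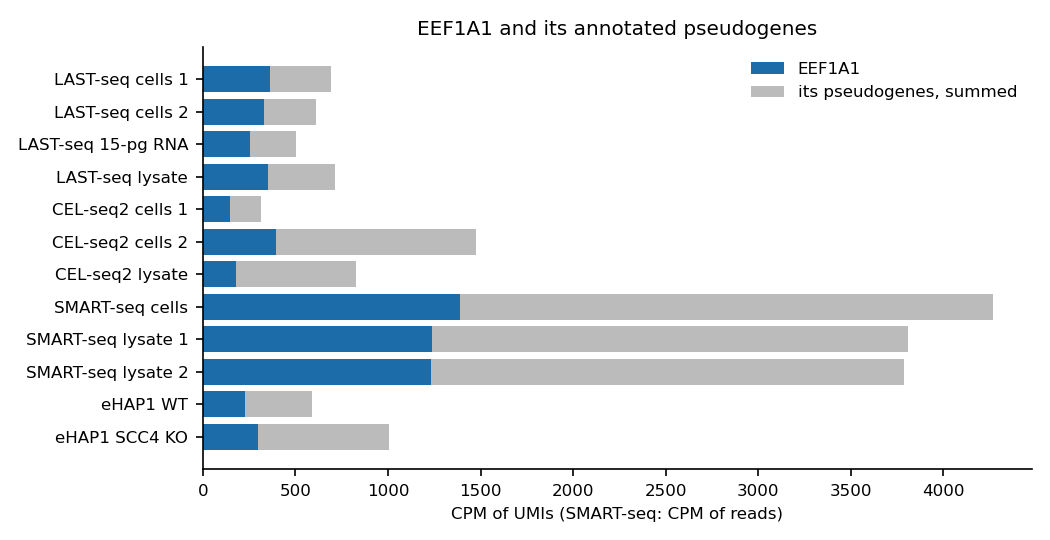
EEF1A1 (blue) and the sum of its 49 annotated pseudogenes (grey) in 12 libraries, as CPM of UMIs or, for SMART-seq, of reads. SMART-seq sums reach 3787 to 4266 CPM of reads, LAST-seq sums of HEK293T lie between 502 and 716, and the pseudogene part is larger in SCC4 KO (709) than in WT eHAP1 (362).

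The same counting question touched other members. All 153 pseudogenes of 28 members held 6.54% and 6.29% of the UMIs of members and pseudogenes together in LAST-seq cells, 11.5% and 23.7% in CEL-seq2 cells and 20.8% of reads in SMART-seq cells. EEF1B2 pseudogenes reached 910 and 1924 CPM in the CEL-seq2 libraries against 265 and 256 in the LAST-seq libraries. More than 50% of the windows in the last 500 bases were shared with another gene for 9 of 69 members, whose median level was 9.83 and 4.64 CPM in the LAST-seq cells, against 71.2 and 65.2 for the other 60. Those 9 hold the readthrough genes without a row, counted as 0, but also EEF1B2 (608 and 482 CPM) and EIF3C (326 and 315). The 9 also include EIF4A1, the cap-complex helicase, whose transcript lies wholly within overlapping annotated genes. EIF3L, another, was listed at 0 and 0.662 CPM in LAST-seq and at 219 CPM of reads in SMART-seq. EEF1G had 14.0 and 11.9 CPM in LAST-seq, where an EEF1G-like processed pseudogene with 66% of its windows had 227 and 172. EIF3C and EIF3CL shared nearly all windows, so their separate values are uncertain.

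EIF5A, the hypusine-bearing elongation factor, and EIF5AL1, an intron-free gene of almost the same coding sequence, show how close such copies are. The coding sequences are 462 bases long and differ at 5 of them (98.9% identity). The stretch from coding position 76 to 135 holds 3 of these differences, which are in capitals (GENCODE transcripts, GRCh38). It lies in exon 2 of 6 of EIF5A and in the single exon of EIF5AL1.
EIF5A (chr17:7309711-7309770, plus strand): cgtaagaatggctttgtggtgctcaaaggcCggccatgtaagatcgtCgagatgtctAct
EIF5AL1 (chr10:79512725-79512784, plus strand): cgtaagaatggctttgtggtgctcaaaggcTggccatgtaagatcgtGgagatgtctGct
Over LAST-seq cells EIF5AL1 ran from 1350 to 1940 CPM in library 1 and from 1237 to 1712 in library 2. EIF5A ran from 96.9 to 223 and from 89.1 to 232, so the copies did not overlap. In CEL-seq2 the order depended on the library, with 481 for EIF5AL1 and 332 for EIF5A in library 1, and 672 and 758 in library 2. SMART-seq cells held 275 CPM of reads for EIF5AL1, whose transcript is 3908 bases, and 917 for EIF5A, whose transcript is 1264 bases. None of the windows in the last 500 bases of EIF5AL1 occurred elsewhere, against 35.7% for EIF5A.

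LAST-seq and CEL-seq2 were compared on HEK293T single cells, with UMIs summed over the cells of each library and edgeR's quasi-likelihood test fitted to all genes. EIF4G1, EIF4G3 and EIF3A were lower in LAST-seq, and EIF4G2, EIF5AL1 and EEF2 were higher. Of 63 members tested, 16 passed an adjusted p of 0.05 (25.4%), 7 higher in LAST-seq and 9 higher in CEL-seq2. Over all 11271 genes 26.2% were called, 11.3% higher in LAST-seq and 14.8% higher in CEL-seq2, so the members' share was near that of all genes. With total UMIs in place of TMM factors, LAST-seq over CEL-seq2 shifts by -0.35 on the log2 scale. Then 4 members were higher in LAST-seq and 12 in CEL-seq2, beside 740 and 2286 of all 11271 genes. All 3 members that lost the call under that scaling, EEF2, EIF3K and EIF6, were higher in LAST-seq under both.

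Among cap-complex genes, EIF4G1, the main eIF4F scaffold, had 82.8 and 79.5 CPM in LAST-seq against 453 and 370 in CEL-seq2 (log2 difference -2.01 ± 0.28 SE, adjusted p = 0.0018). EIF4G3, its paralog, differed by -1.51 (adjusted p = 0.0079). EIF4G2 went the other way, with 1818 and 1667 against 968 and 622 (1.47 ± 0.32 SE, adjusted p = 0.0094). EIF4A1 had no UMI in LAST-seq, against 131 and 47 UMIs in CEL-seq2. UMIs assigned to this gene were at least 15.3-fold lower in LAST-seq against a floor of 3 UMIs in each library. Its 13 annotated pseudogenes, however, held 62.5 and 72.2 CPM in the LAST-seq libraries of cells. For the CEL-seq2 libraries their sums were 89.4 and 187 CPM. The bound therefore describes assigned UMIs, and whether EIF4A1 transcripts were captured less often was not tested. EIF4E, the cap-binding protein, EIF4A2 and EIF4EBP1, an inhibitor of EIF4E, did not pass, with log2 differences of 0.60, -0.31 and -0.26.

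In eIF3, EIF3A, the largest subunit, had 96.1 and 100.01 CPM in LAST-seq against 474 and 409 in CEL-seq2 (-1.85 ± 0.28 SE, adjusted p = 0.0024). EIF3CL was lower by the same test (-2.17, adjusted p = 0.025) and EIF3K higher (1.09, adjusted p = 0.017), and the remaining 10 subunits tested, EIF3E among them at 0.10, did not pass. EIF2AK4, the kinase GCN2 that senses uncharged tRNA, had 21 and 7 UMIs against 106 and 117 (-2.62, adjusted p = 0.0075). EIF2S3B, a retrocopy of the eIF2 gamma subunit gene, was at 0 in LAST-seq and at least 11.3-fold lower. EIF2S1, the eIF2 alpha subunit, differed by -0.20 without passing.

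Among elongation factors, EIF5AL1 was higher in LAST-seq (1.67 ± 0.34 SE, adjusted p = 0.0075) and EIF5A lower (-1.51 ± 0.43 SE, adjusted p = 0.029). EEF2 was higher by 0.97 (adjusted p = 0.044). EEF1D, the delta subunit of the exchange complex, was at 0 in LAST-seq and had 20 UMIs in each CEL-seq2 library, at least 6.11-fold lower in LAST-seq. EEF1A1 (0.64), EEF1A2 (0.58), EEF1B2 (-0.29), EEF1G (0.15) and EIF1 (0.45) did not pass. EEF1E1, a scaffold of the multisynthetase complex, was higher (1.34, adjusted p = 0.0081), as were EIF6, an anti-association factor of the large ribosomal subunit (1.19, adjusted p = 0.019), and EEF1AKMT1 (1.98, adjusted p = 0.013). With 1 LAST-seq library left out, a lone library stands for that assay, so only sizes are given. Without LAST-seq library 1 and without library 2, EIF4G2 differed by 1.39 and 1.61, EIF5AL1 by 1.64 and 1.75, and EEF2 by 0.97 and 1.03. In the same order EIF3A differed by -1.84 and -1.80, EIF3CL by -2.83 and -1.66, and EIF2AK4 by -3.69 and -1.95. None of EIF4G2, EIF5AL1, EEF2, EIF3A, EIF5A, EIF3CL, EIF3K, EEF1E1 and EIF6 kept the call with either left out. Without CEL-seq2 library 2 the differences of EIF5A and EIF3CL were -0.64 and -1.29 and did not pass.

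**Figure D3:**
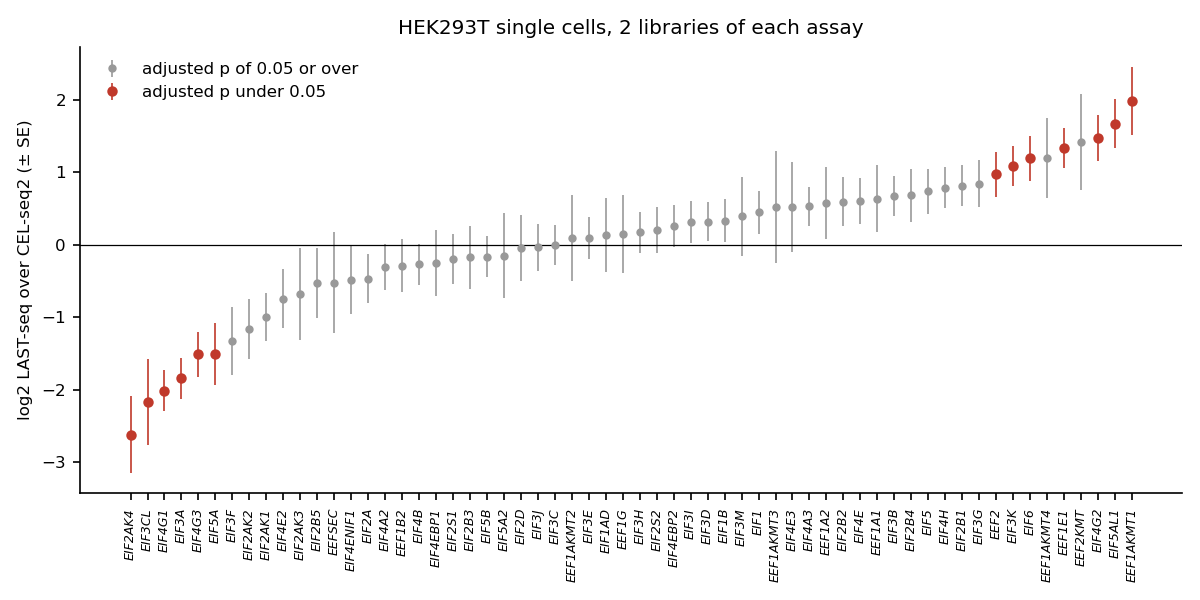
Log2 difference between LAST-seq and CEL-seq2 for 60 members in HEK293T single cells (points, with bars of 1 SE from edgeR), with 2 libraries of each assay and members that passed an adjusted p of 0.05 in red. The range runs from EIF2AK4 at -2.62 to EEF1AKMT1 at 1.98; the 3 members at 0 in LAST-seq are left out.

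Of 21 other genes of the pathway tested, 4 were higher in LAST-seq, namely TPT1 (0.99), NACA (1.07) and BTF3 (1.24), whose products bind nascent chains or eEF1A, and DPH7 (1.51), of diphthamide synthesis. LARP1, which binds terminal oligopyrimidine mRNAs, was lower (-1.10), as was the ribosome-rescue factor HBS1L (-1.23). These 6 are 28.6% of the pathway genes, beside 26.2% of all genes.

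The number of reads behind each UMI also differed between members. Over genes with at least 50 UMIs, the median member had 4.48 and 4.19 reads per UMI in the LAST-seq libraries. EIF5 had 21.0 and 17.9, and EIF5B 18.2 and 19.5, above 99% of genes in both libraries, whereas in CEL-seq2 library 1 they had 1.98 and 2.93. EEF1A1 (2.22 and 2.02) and EIF5AL1 (1.98 and 1.94) were near the low end.

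The cell lines were compared in LAST-seq by calling a member only when it was past 2-fold in the same direction in all 4 pairs of a HEK293T library and a WT eHAP1 batch. No test was made, since WT eHAP1 is 1 sample, and line, sort and pooling size cannot be told apart. Of 60 members averaging 1 UMI per cell or more in either line, 14 were called (23.3%), against 25.4% of 10800 genes. In eHAP1 6 were higher (11.6% of all genes were) and in HEK293T 8 (13.8% of all genes were). With TMM factors, eHAP1 over HEK293T shifts by 0.25 on the log2 scale. Then 9 members were higher in eHAP1 and 4 in HEK293T, 13 in all, beside 2617 of 10800 genes (24.2%).

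EEF1A2, the eEF1A form known from muscle and neurons, had the largest difference. HEK293T cells ran from 0 to 47.5 CPM in library 1 and from 0 to 57.1 in library 2, and WT eHAP1 cells from 77.3 to 312 with a median of 178. The lines did not overlap, and the mean log2 difference was 3.19, a 9.12-fold higher level in eHAP1. EEF1A1 was not called and had a mean log2 difference of -0.60. The 15-pg RNA wells of HEK293T held 73.0 CPM of EEF1A2, above the 21.1 and 17.9 of the cells.

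The subunit-joining factor EIF5B ran from 147 to 375 CPM over all HEK293T cells and from 1224 to 2332 in WT eHAP1 (mean log2 difference 2.82). EIF5, the GTPase activator of eIF2, ran from 193 to 388 and from 746 to 1465 (1.87). Neither gene overlapped between the lines, and they are the pair with the most reads per UMI in HEK293T. EIF2AK4 (2.25), EIF2AK1 (1.70), the heme-regulated eIF2 kinase, and EIF4E3 (2.28), an atypical cap-binding protein, were also higher in eHAP1. All 6 kept the call with TMM factors.

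Of the 8 members higher in HEK293T, 4 were eIF3 subunits. EIF3I ran from 316 to 517 CPM over HEK293T cells and from 26.7 to 242 in WT eHAP1, with no overlap, and a mean log2 difference of -2.11. EIF3M (-1.53), EIF3E (-1.36) and EIF3D (-1.19) were called as well but not with TMM factors. Over the 13 eIF3 subunits measured the median was -0.59, beside -0.22 over all genes. The direction of single subunits depended on the scaling. With TMM factors EIF3H and EIF3J, whose means were -0.24 and -0.07, moved to 0.01 and 0.18. The other members called higher in HEK293T were EEF1G (-2.21), EIF4EBP3 (-2.24), EIF1B (-1.53) and EIF2B4 (-1.57), the last of which lost the call with TMM factors. EEF1G and EIF4EBP3 share most of their sequence windows with overlapping genes. EEF2 (-0.64), EIF1 (-0.47), EIF4E (-0.43), EIF4A2 (-0.07), EIF4G1 (0.06), EIF2S1 (0.13), EIF5A (0.48), EIF4EBP1 (0.65), EEF1B2 (0.78), EIF4G2 (-0.92) and EIF6 (1.02) were not called. Of 21 other pathway genes, none was higher in eHAP1 and 6 were higher in HEK293T (ETF1, DENR, PDCD4, NACA, DPH2 and DPH3), 28.6% beside 25.4% of all genes. With TMM factors 5 were higher in HEK293T (23.8%, beside 24.2% of all genes), ETF1 having lost the call.

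**Figure D4:**
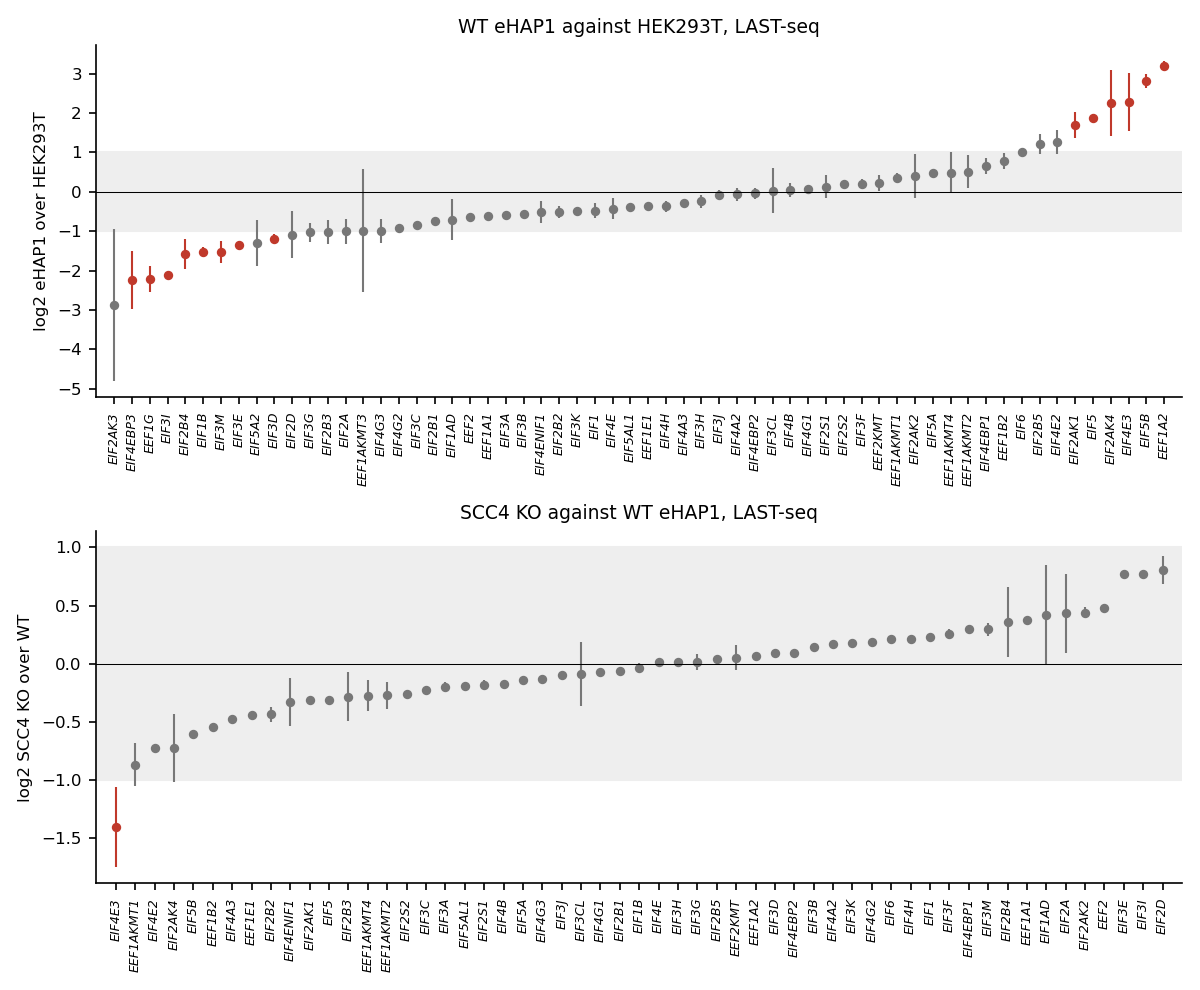
Mean log2 difference of each member, sorted, between WT eHAP1 and HEK293T (top, 60 members, bars from the lowest to the highest of 4 pairs) and between SCC4 KO and WT eHAP1 (bottom, 55 members, bars from the lower to the higher of 2 batches). Grey bands mark differences within 2-fold and red the members called; the top panel spans -2.88 to 3.19, and in the bottom panel EIF4E3 at -1.41 stands alone. The WT cells enter both panels.

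In the SCC4 KO the targeted gene MAU2 had 12.6 CPM against 42.3 in WT. Most members stood close between the genotypes. Calling a member only past 2-fold in the same direction in both batches, 1 of 55 was called, against 5.97% of 9191 genes (3.01% lower and 2.96% higher in KO). That member was EIF4E3, with 59.4 and 45.4 CPM in the WT batches and 17.6 and 21.7 in the KO batches, on average 2.65-fold lower. Over cells it ran from 0 to 587 CPM in WT with a median of 50.2, and from 0 to 86.2 in KO with a median of 17.5, so the genotypes overlapped. A single WT cell gave the value of 587, and the next highest cell of that batch had 102. Without that cell the call stood, but from the mean share per cell batch 2 differed 1.82-fold and no member was called.

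Of the 55 members, 36 (65.5%) lay within 1.25-fold on average, against 46.8% of all genes. The genes were not matched for level, and members were more abundant, with a median mean of 10.2 scaled UMIs in WT against 3.58. Between the WT batches, with no genotype difference, the median absolute log2 difference was also smaller for members (0.032) than for all genes (0.098). The 2 shares therefore do not show that members were steadier in KO than genes of like level. The next lower values in KO were EEF1AKMT1 (mean log2 difference -0.87), EIF4E2 (-0.72), EIF2AK4 (-0.72), EIF5B (-0.61) and EEF1B2 (-0.54). The higher ones included EIF2D (0.81), EIF3I (0.77), EIF3E (0.77), EEF2 (0.48) and EEF1A1 (0.38). EEF2 ran from 1039 to 1930 CPM over WT cells and from 1747 to 2713 over KO cells, so the ranges overlapped. EEF1A2 (0.06), EIF4E (0.01), EIF4G1 (-0.07), EIF4A2 (0.17), EIF5A (-0.14), EIF2S1 (-0.19), EIF4G2 (0.18), EIF6 (0.21), EIF1 (0.23) and EIF4EBP1 (0.29) were smaller still. None of 20 other pathway genes was called. The median of 82 ribosomal protein genes was 0.27, with 1 called, beside -0.04 for the members and 0.03 for all genes.

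The batches of a genotype were much closer than separate libraries. The median absolute log2 difference of members was 0.03 between batches of WT and 0.03 between those of KO, against 0.28 between the LAST-seq libraries of HEK293T. Taken as replicates, such batches let edgeR call 26 of 62 members, 8 higher and 18 lower in KO, and 4437 of 15071 genes. These p-values measure the spread between batches of 1 sample per genotype and no spread between clones.

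Noise was measured in WT eHAP1 as the coefficient of variation (CV) over 148 cells of UMIs scaled to the median total. The theoretical CV is that of binomial capture with the efficiency of 0.35 assumed in the study. No member of the 55 with a mean of at least 1 UMI fell below that line, nor did any of all 8909 genes, whose lowest ratio was 1.09. The members' median ratio of observed to theoretical CV was 1.47, against 1.50 for all genes. Their median ratio to the Poisson CV was 1.19 against 1.21. Beside the running median of genes of like mean, 31 members were less variable (56.4%, against 50.1% of all genes) and 23 more. In KO 29 were less variable (52.7%, against 50.2%) and 25 more. Cell totals themselves varied with a CV of 0.697 in WT and 0.382 in KO.

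The most variable member was EIF4E3, with a mean of 6.22 scaled UMIs and a CV of 1.04, 3.22 times the theoretical CV and further above the running median than any other member. It had no UMI in 15 cells and 63 in the highest. In KO its residual, the log2 distance of the CV from the running median, was 0.06. Without the WT cell at 587 CPM, an alternative chosen after seeing the data, the CV was 0.619, 1.85 times the theoretical CV, and the residual in WT 0.33. EIF2AK1 (0.47), EIF4E2 (0.28), an EIF4E relative that represses mRNAs, EEF1A1 (0.26) and EIF5 (0.22) followed, and for EIF2AK1 the residual was 0.66 in batch 1 and 0.06 in batch 2. EEF1A1 had a CV of 0.273 at a mean of 27.2 scaled UMIs. Its cells held between 1 and 230 UMIs before scaling, or 23.6 to 367 CPM.

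The least variable for their level were EIF4G2 (-0.25), EIF3K (-0.23), EEF2 (-0.23), EIF4ENIF1 (-0.21), which shuttles EIF4E, and EEF1A2 (-0.18). EEF2 had a CV of 0.0911 at a mean of 193, and its residual was -0.47 in KO. EIF4G2 stood at -0.25 in WT and at 0.62 in KO, where the highest cell held 2860 CPM against a median of 1025. The paralogs EEF1A1 and EEF1A2 had CVs of 0.273 and 0.225 in WT, at means of 27.2 and 21.8, and of 0.219 and 0.225 in KO, at means of 33.2 and 20.9.

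**Figure D5:**
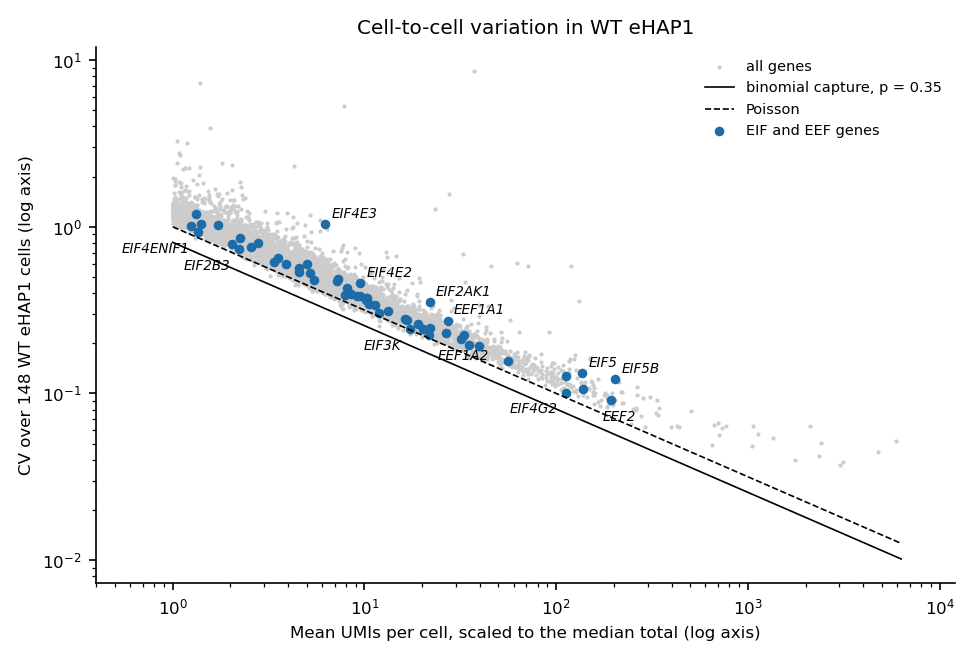
CV over 148 WT eHAP1 cells against the mean scaled UMIs per cell, both on log axes, for 55 members (blue) and all genes (grey), with the binomial line at an efficiency of 0.35 (solid) and the Poisson line (dashed). The members lie within the cloud of all genes except EIF4E3 at a CV of 1.04, and EIF4G2 lies near the Poisson line, at 1.07 times its CV.

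Co-variation between members was near 0. Across WT cells, the 1225 pairs of 50 members with a mean of at least 2 UMIs had a median Spearman correlation of 0.0051 of UMIs over the cell total, beside 0.0026 over all pairs of 6817 genes. These correlations are over cells of the same pooled libraries and share their depth, and in counts this sparse a weak value is no finding. Pairs ran from -0.27 to 0.27, and 8 pairs (0.653%) were over 0.2, against 1.05% of all pairs. The highest were EIF1 with EIF4EBP1 (0.27), EEF1A1 with EIF5AL1 (0.23), EEF2 with EIF5AL1 (0.23), EIF4G1 with EIF6 (0.21) and EIF4E2 with EIF4A2 (0.21). In KO cells these 5 pairs lay between -0.08 and 0.07. The lowest were EIF3J with EEF1E1 (-0.27), EIF4EBP2 with EIF1 (-0.25) and EIF3D with EEF1AKMT1 (-0.25). Subunits of eIF3, which form a complex, had a median of -0.0044 over 66 pairs.

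The members of the list of known terminal oligopyrimidine mRNAs were set against ribosomal protein genes in the same way. Pairs of the 7 measured had a median of -0.0064, and their 574 pairs with ribosomal protein genes 0.0085, while pairs of ribosomal protein genes had 0.036 in WT and 0.042 in KO. With the summed share of 86 ribosomal protein genes, the 7 had a median correlation of 0.078, other members 0.010 and all other genes 0.021. In KO the medians were 0.031 for the 7 and 0.016 for other members. Split instead by the match at the annotated start, the 10 members with it had a median of -0.00034 in WT. The other 40 had 0.026, and they include members with no entry, such as EIF3E and EIF3H, whose starts were not read.

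The genes whose pattern over WT cells was most like that of EEF1A1, among 6816, were RPL3P9 (Spearman correlation 0.38), ELAC2 (0.35), EEF1A1P13 (0.34), ENSG00000279865 (0.32) and PRDX1P1 (0.32), over 148 cells. Of these, 3 are processed pseudogenes, EEF1A1P13 being a copy of EEF1A1 that shares 12.7% of its windows. In KO cells the values were 0.08, -0.02, 0.11, 0.32 and 0.04. The most like member was EIF5AL1.

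Variation between lysate wells was read as technical. That the wells of a set held the same RNA was assumed, as the labels say only cell lysate. Over 48 members with a mean of at least 1 in every lysate library, the median CV was 0.440 in LAST-seq and 0.335 in CEL-seq2, with all genes at 0.551 and 0.601. It was 0.285 over 7 wells and 0.264 over 10 wells of SMART-seq once near-identical wells were counted once or left out, with all genes at 0.472 and 0.455. These are CVs of reads at median means of 184 and 152, and over the Poisson CV the medians were 3.70 and 3.07. Reads are not molecules, so these CVs cannot be ranked against those of UMIs. LAST-seq was below CEL-seq2 for 23 of the 48 members (47.9%), against 58.9% of all genes. Median means differed, at 7.57 UMIs in LAST-seq and 11.0 in CEL-seq2, and over the Poisson CV the medians were 1.07 and 1.13. Among the 28 members with a mean of at least 5, both were at 0.262. EEF2 had a CV of 0.0769 in LAST-seq, 0.125 in CEL-seq2 and 0.256 and 0.205 in SMART-seq. EEF1A1 had 0.177, 0.238, 0.0511 and 0.0901.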

How the data were processed

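The authors converted the runs with bcl2fastq 2.20, trimmed the reads with cutadapt, aligned and counted them on GRCh38 with the zUMIs pipeline, subsampled the assays to an equal depth and collapsed UMIs by sequence identity. The deposited values are whole-number counts of UMIs or reads in exons per gene and well, without normalization. The authors removed batch effects with ComBat-seq before fitting bursting; whether the deposited eHAP1 counts carry that step is not stated, and batches of a genotype were close.

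Genes were matched by Ensembl identifier to a later GENCODE release than the authors', which held over 99% of identifiers. The members and the gene lists were chosen with earlier results of these data known. UMIs were summed over the wells of a library. LAST-seq and CEL-seq2 were compared with edgeR 4.0.16 (quasi-likelihood, TMM, filterByExpr, Benjamini-Hochberg adjustment over all genes, adjusted p under 0.05), whose p-values measure the spread between 2 libraries of each assay. Other comparisons used a 2-fold threshold on CPM with 0.5 UMI added, on genes averaging 1 UMI per cell or more. Running medians used 201 genes. Near-identical wells had a mean squared difference over the sum of reads under 2, over genes with at least 20 reads. Depth limits low genes, and floors of 3 UMIs cover counting error only. Alternatives used DESeq2 1.42.0, other scalings, filters and left-out libraries. The steps were tested on simulated data. Calculations used Python 3.11.15, numpy 2.4.6, scipy 1.17.1, pandas 2.3.3, matplotlib 3.10.9 and R 4.3.3. Named genes were a set of 17 core factors, the 10 called members with the largest difference in each comparison, the 5 most and 5 least variable, and the 5 highest and 3 lowest pairs; further genes were named after their values were seen. Spike-in rows and burst rates were not used here.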

Additional observations from a re-analysis of the deposited data

How the results depend on the processing

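Of the 16 members called between LAST-seq and CEL-seq2, DESeq2 called the same number, no filter gave 19, and leaving out 1 library gave 3 to 21; the lone library is then assumed to vary like the others. The differences of these 16 kept their direction under every alternative, with the call kept in 84 cases and lost in 28, of which EEF2, EIF3K and EIF6 lost it with total UMIs and the others with a library left out. For the cell lines, alternatives gave 13 to 19 members beside 14, and 2617 to 5332 genes beside 2739. For SCC4 KO, beside 1 member and 549 of 9191 genes, a mean of at least 0.1 UMI gave 3 members and 1746 of 15609 genes. The mean share per cell gave 0 members and 540 genes, and 1 batch alone 2 members and 956 or 1159 genes. Without a block edgeR gave 26 members and 4437 of 15071 genes. With the batch as a replicate block it gave 26 members (9 higher and 17 lower) and 4800 genes. DESeq2 gave 22 members and 4428 of 23939 genes. The batches of WT and KO share only a number, so the block pairs nothing known. Leaving out the WT cell with the highest EIF4E3 share, an alternative chosen after seeing the data, kept 1 and gave a median noise ratio of 1.48. The median noise ratio of 1.47 was 1.19 against Poisson, 3.30 from unscaled counts (all genes 2.21) and 1.36 to 1.49 with 1 batch left out. The median pair correlation was 0.547 from unscaled counts (all genes 0.390), 0.0035 at a mean of at least 5 UMIs and 0.0027 to 0.0045 with 1 batch left out. The EEF1A1 share per cell with its pseudogenes was 0.0641% in LAST-seq and 0.0913% in CEL-seq2 (0.0334% and 0.149% by library). Of the UMIs of protein-coding nuclear genes, EEF1A1 alone held 0.0483% in LAST-seq. At a mean of at least 5, the lysate CV was 0.262 in LAST-seq, 0.262 in CEL-seq2, 0.220 and 0.180 in SMART-seq, and over all wells of the second SMART-seq set it was 0.386. The cause of these moves was not tested. Cells and wells of 1 library share their amplification, and low members are limited by depth.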
